A study of Homo sapiens with 4 samples.

Results

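The genes of cholesterol synthesis and its control by sterols were followed through all 4 RNA-Seq libraries of the DAOY experiment. The 29 genes were taken by symbol from the raw and normalized count tables, and each had at least 10 raw counts in at least 2 libraries, so that all 29 of the 29 were kept, out of 20363 genes in the raw table and 14970 genes tested. They comprised 7 genes of the mevalonate and isoprenoid steps, 11 of the steps from squalene to cholesterol, 5 of sterol sensing, 3 of sterol transport and 3 of fatty acid synthesis.

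DAOY is a line established from a human medulloblastoma, a tumour of the cerebellum. Cells were either controls (CTL) or overexpressed ZNF521, a zinc finger co-factor, and each kind received DMSO, the vehicle, or SAG, which switches on the SHH pathway by binding SMO. The 4 conditions were thus CTL_DMSO, CTL_SAG, ZNF521_DMSO and ZNF521_SAG, with 1 library each. The ZNF521 vector is a lentivirus that carries ZNF521 together with EGFP, and transduced cells were sorted for EGFP as a population. The deposited design calls the controls WT whereas the study's text describes a control vector, and in the former case vector and ZNF521 cannot be told apart. The methods give 2 days of SAG after 1 day of starvation, and the dose given to the sequenced cells is not given in the sources used here.

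Animal cells build cholesterol from acetyl-CoA through mevalonate, isoprenoids and squalene. When sterols in the endoplasmic reticulum run low, SCAP carries the precursors of the transcription factors SREBP1 and SREBP2 (encoded by SREBF1 and SREBF2) to the Golgi for cleavage, while INSIG1 and INSIG2 hold them back when sterols are plentiful. The cleaved factors bind sterol regulatory elements, usually beside sites for NF-Y and SP1, and switch on the enzymes of the pathway. Sterols matter to SHH signalling in the cerebellum since PTCH1 and SMO bind sterols, and the hedgehog ligand itself carries cholesterol.

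The libraries held between 12294833 and 16314685 counts, and the ZNF521 transcript and GLI1, a target of SHH signalling, followed the labels (log2 fold change of GLI1 with SAG 2.44, standard error 0.222, adjusted p = 0.00054 from edgeR). Of the markers of granule neuron precursors and medulloblastoma, ZIC1, ZIC2, PAX6 and SOX2 had normalized counts between 175.9 and 312.2 and OTX2 between 62.3 and 78.2, while ATOH1, BARHL1 and NEUROD1 did not exceed 8.44. Defining markers of leukocytes (PTPRC) and hepatocytes (ALB) stayed at 4.02 or below, and those of endothelium, epithelium, astrocytes, oligodendrocytes and adipocytes at 60.9 or below. CTL_DMSO stood apart from the rest, with a spread of 0.273 over 9161 genes (SD of the log2 ratio to the mean of a gene), against 0.126 to 0.143 in the other 3 libraries. Its deviations followed transcript GC content, from a median of -0.25 among the fifth of genes with least GC to 0.191 among the fifth with most, and CTL_SAG (0.132 and -0.0953) and ZNF521_SAG (0.139 and -0.128) were tilted the opposite way. The markers SOX2 (log2 fold change 0.49, unadjusted p = 0.0125, adjusted p = 0.391 from edgeR) and MBP (1.18, unadjusted p = 0.0226, adjusted p = 0.397, on at most 28.2 normalized counts) were higher with SAG, and their part in the results was not tested.

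The promoters of these genes show what the group shares in sequence. RefSeq windows of 250 bases before the start site (GRCh38.p14) were matched for 25 of the 29 genes. The NF-Y core CCAAT, searched on both strands, was present in 17 of the 25 (68.0%), against 33.2% of 27305 promoters in the table and 35.0% of 11460 promoters of tested genes. The SP1 core GGGCGG was present in 24 of the 25 (96.0%), against 69.1% of promoters of tested genes, and the CACGTG box in 4 (16.0%, against 8.7%). The sterol element in the form TCACNCCAC was found once, in SREBF2, and in 0.846% of promoters of tested genes, and GACCACCCA, the core bound by GLI proteins, was in 0 of 25 and in 0.148% of promoters of tested genes. These are letter matches within a short window, and no binding was measured.

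The stretches below are from the genes with the smallest unadjusted p for SAG that had a CCAAT before the first annotated base of the gene, and from SREBF2 for its sterol element. Each is read 5′ to 3′ on the strand of the gene and ends before the first base that GENCODE v44 assigns to that gene. Capitals mark CCAAT or its reverse complement ATTGG and, in SREBF2, the sterol element.

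STARD4, chr5:111512591-111512785, minus strand: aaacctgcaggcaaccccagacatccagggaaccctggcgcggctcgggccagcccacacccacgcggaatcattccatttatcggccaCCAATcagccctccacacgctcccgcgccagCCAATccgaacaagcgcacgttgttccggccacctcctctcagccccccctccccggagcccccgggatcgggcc

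MSMO1, chr4:165327419-165327666, plus strand: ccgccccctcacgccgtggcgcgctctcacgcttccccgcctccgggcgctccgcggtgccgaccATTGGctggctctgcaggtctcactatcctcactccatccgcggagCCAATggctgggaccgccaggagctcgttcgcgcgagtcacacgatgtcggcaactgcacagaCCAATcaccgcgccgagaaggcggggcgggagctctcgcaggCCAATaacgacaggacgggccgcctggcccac

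IDI1, chr10:1049120-1049369, minus strand: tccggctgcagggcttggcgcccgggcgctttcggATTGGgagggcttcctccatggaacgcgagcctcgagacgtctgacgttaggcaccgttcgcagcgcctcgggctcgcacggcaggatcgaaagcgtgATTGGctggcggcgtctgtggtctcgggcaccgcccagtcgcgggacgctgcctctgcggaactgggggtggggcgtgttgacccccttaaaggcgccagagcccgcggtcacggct

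HMGCS1, chr5:43313513-43313662, minus strand: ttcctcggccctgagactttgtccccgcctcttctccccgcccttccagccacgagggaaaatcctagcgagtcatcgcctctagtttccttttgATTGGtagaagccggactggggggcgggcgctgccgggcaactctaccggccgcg

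SREBF2, chr22:41832855-41833104, plus strand: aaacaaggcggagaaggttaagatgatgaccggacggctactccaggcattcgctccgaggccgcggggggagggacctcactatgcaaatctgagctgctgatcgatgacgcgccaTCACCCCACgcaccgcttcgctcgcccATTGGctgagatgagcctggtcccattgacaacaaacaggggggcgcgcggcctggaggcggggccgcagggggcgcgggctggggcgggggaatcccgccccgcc

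Positions are counted back from the RefSeq start site, and 55 bases for STARD4, 2 for MSMO1 and 100 for HMGCS1 lie between the end of the stretch shown and that site. MSMO1 held 4 CCAAT cores, beginning 185, 139, 76 and 34 bases before the start site. STARD4 held 2, at 161 and 130 bases, and IDI1 held 2, at 215 and 117 bases. In SREBF2 the sterol element stood upstream of the single CCAAT core, which began 106 bases before the start site. SC5D, also among the genes of smallest p for SAG, had 1 core at 56 bases, inside the span that GENCODE assigns to the gene, and is not shown.

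In these cells the pathway was expressed throughout. Per kb of transcript, mean normalized counts over the 4 libraries were highest for FDFT1, squalene synthase, with 2020, and for SCD, the stearoyl-CoA desaturase, with 1850. ACAT2, the cytosolic thiolase that opens the pathway, followed with 1480 and FDPS, which makes farnesyl diphosphate, with 1360. The lowest levels per kb were those of CYP51A1, the lanosterol demethylase (22.8), ABCA1, the exporter of cellular cholesterol (33.3), INSIG2 (83.7) and SC5D, the lathosterol desaturase (85.5). In GENCODE v44, 68.2% of the exon bases of CYP51A1 are also assigned to a longer gene on the same strand, and 36.4% of those of EBP are shared in that way, so the levels of both are uncertain. Pseudogenes named for FDPS (8), IDI1 (3), CYP51A1 (3), HSD17B7 (2) and SCD (1) could take reads from their parent genes. On the opposite strand, a lncRNA shares 18.6% of the exon bases of FDPS, and the gene TCP1 shares 17.2% of those of ACAT2. Their levels are uncertain too, since the strand setting of the counting is not known.

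**Figure D1:**
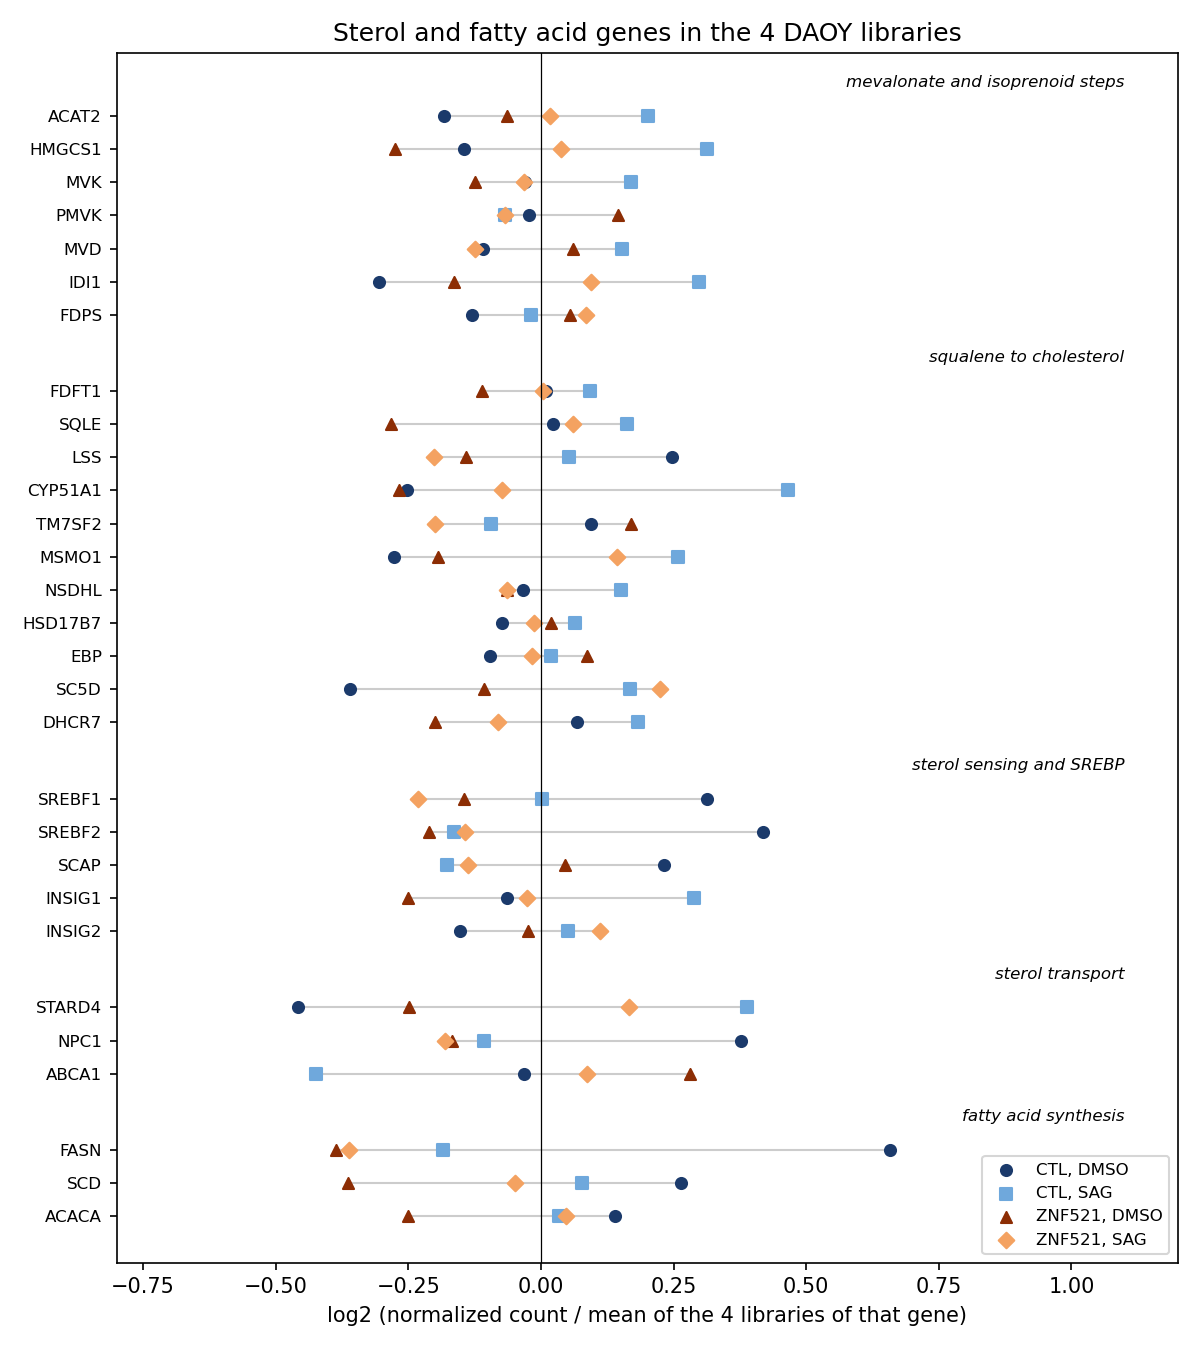
Normalized count of each of the 29 genes in each library relative to that gene's mean over the 4 libraries (x axis, log2), grouped by role (y axis); each point is 1 library. CTL_SAG is the highest library for 14 of the 29 genes and ZNF521_DMSO the lowest for 12, and FASN in CTL_DMSO lies farthest from the other libraries.

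Differences between the libraries were small. The ratio of the highest to the lowest library ran from 1.1 in HSD17B7, a reductase of the late pathway, to 2.06 in FASN, the fatty acid synthase, and the next were STARD4 (1.8), CYP51A1 (1.66) and ABCA1 (1.63). CTL_SAG was the highest library for 14 of the 29 genes (48.3%, against 23.4% of all tested genes), and ZNF521_DMSO was the lowest for 12 (41.4%, against 19.5%). The 18 genes that encode enzymes of sterol synthesis summed to 25659 normalized counts in CTL_DMSO, 28285 in CTL_SAG, 24153 in ZNF521_DMSO and 25409 in ZNF521_SAG. The sum of FASN, SCD and ACACA, the acetyl-CoA carboxylase, was 27718, 20077, 15988 and 18358 in the same order. The sum of the sterol enzymes was therefore highest in CTL_SAG and that of the fatty acid genes in CTL_DMSO. By gene, LSS was highest in CTL_DMSO, PMVK, TM7SF2 and EBP in ZNF521_DMSO, FDPS and SC5D in ZNF521_SAG, and the other sterol enzymes in CTL_SAG. In RNA of a whole culture, fewer cells with a transcript and less of it per cell cannot be told apart.

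The first comparison asked how the pathway stood after SAG, across both kinds of cells. Most of its enzymes were slightly higher with SAG, and the cytosolic sterol carrier STARD4 was the gene with the largest difference, but none passed an adjusted p of 0.05. By edgeR's quasi-likelihood test with the kind of cells as a block, 0 of 29 genes were past an adjusted p of 0.05 (0.0401% of all tested genes were), and at the nominal threshold of the study, an unadjusted p up to 0.05, 5 were higher and 0 lower (6.21% and 5.12% of all tested genes). DESeq2 and limma also gave 0 of 29 past an adjusted p of 0.05. In all, 20 of 29 were higher (50.1% of all tested genes), including 15 of the 18 sterol enzymes. The median log2 fold change was 0.093 over the 29 genes and 0.108 over the 18 enzymes, against 0.001 over all tested genes. Of the 5 genes of sterol sensing 3 were lower (median -0.199), as were 2 of the 3 of sterol transport (-0.249). Of the 3 genes of fatty acid synthesis 2 were higher (0.063). Each p rests on 1 residual degree of freedom and a spread moderated across genes, and measures no spread between libraries of a condition. With 1 library per condition, that degree of freedom also holds any difference in the effect of SAG between the kinds of cells.

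STARD4, which moves cholesterol between membranes, had a normalized count of 712.7 in CTL_DMSO, 1281 in CTL_SAG, 824.2 in ZNF521_DMSO and 1098 in ZNF521_SAG. Both SAG libraries were thus above both DMSO libraries, and CTL_SAG was highest. Its log2 fold change was 0.63 (standard error 0.160, unadjusted p = 0.00182, adjusted p = 0.391 from edgeR). The ratio of SAG to DMSO was 1.8 in CTL cells (exact 95% interval 1.64 to 1.98, Clopper-Pearson, for counting error only) and 1.33 in ZNF521 cells (1.22 to 1.46).

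Several early and late enzymes were also higher in both SAG libraries. HMGCS1, the HMG-CoA synthase that commits carbon to the pathway, had 1442 normalized counts in CTL_DMSO, 1980 in CTL_SAG, 1318 in ZNF521_DMSO and 1637 in ZNF521_SAG. IDI1, the isomerase that provides dimethylallyl diphosphate, had 678.5, 1032, 749.1 and 896.0 in that order. In both genes the SAG libraries did not overlap the DMSO libraries, and the gap was wider in CTL cells. The log2 fold change was 0.39 for HMGCS1 (standard error 0.144, unadjusted p = 0.0193, adjusted p = 0.391 from edgeR) and 0.43 for IDI1 (standard error 0.157, unadjusted p = 0.0173, adjusted p = 0.391). A lncRNA on the opposite strand shares 37.7% of the exon bases of HMGCS1 and another shares 15.0% of those of IDI1, and the strand setting of the counting is not given in the sources used here.

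MSMO1, the methylsterol monooxygenase, had 632.3 normalized counts in CTL_DMSO, 916.8 in CTL_SAG, 669.9 in ZNF521_DMSO and 846.2 in ZNF521_SAG. SC5D had 456.4, 658.6, 544.3 and 685.1, and was the only 1 of these 5 genes that was highest in ZNF521_SAG. Their log2 fold changes were 0.44 (standard error 0.153, unadjusted p = 0.0141, adjusted p = 0.391 from edgeR) and 0.43 (standard error 0.156, unadjusted p = 0.0170, adjusted p = 0.391). In ZNF521 cells alone, which leaves out CTL_DMSO, the ratio of SAG to DMSO was 1.26 for MSMO1 (exact 95% interval 1.14 to 1.40) and 1.26 for SC5D (1.13 to 1.41). This pair has a trend over GC as well. On the log2 scale the ratios were 0.337 and 0.332, and 0.192 and 0.185 less the trend at the GC of each gene.

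**Figure D2:**
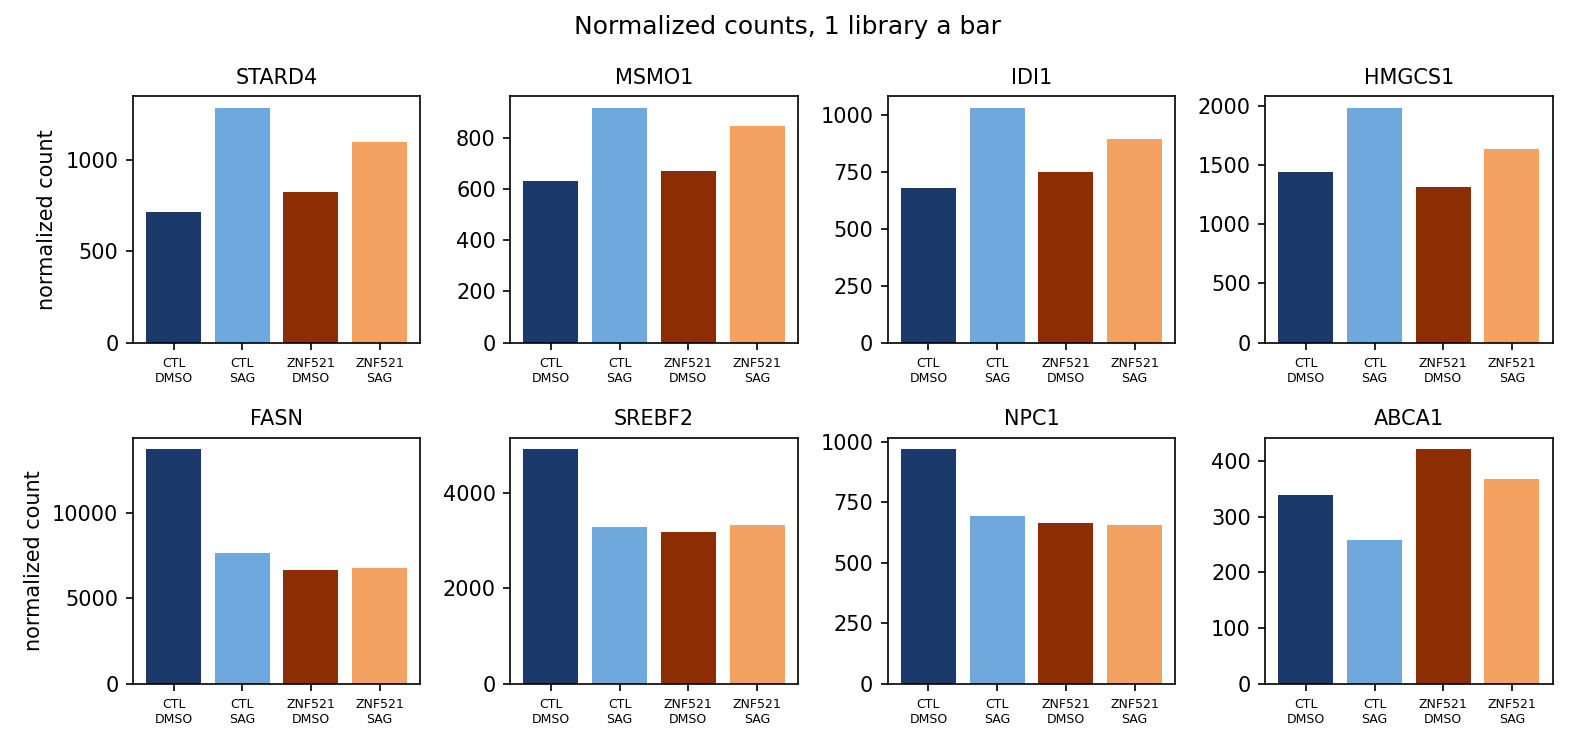
Normalized counts of 8 genes (y axes, from 0) in the 4 libraries (x axes), 1 library a bar and so without error bars. STARD4, MSMO1, IDI1 and HMGCS1 are higher in both SAG libraries than in either DMSO library, FASN, SREBF2 and NPC1 are high in CTL_DMSO alone, and ABCA1 is higher in both ZNF521 libraries than in either CTL library.

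In 10 of the 29 genes both SAG libraries lay above both DMSO libraries (25.4% of all tested genes did so). Besides the 5 above, these were ACAT2, SQLE, CYP51A1, INSIG1 and INSIG2. INSIG1, the sterol sensor that is itself a target of SREBP, had 2473 normalized counts in CTL_DMSO, 3156 in CTL_SAG, 2173 in ZNF521_DMSO and 2538 in ZNF521_SAG, with a log2 fold change of 0.29 and a 95% interval from -0.03 to 0.60. SQLE, the squalene epoxidase and a control point of the pathway, had 1596, 1759, 1291 and 1638, so that its SAG and DMSO libraries were separated by little. CYP51A1 rested on 58 to 88 raw counts, and its log2 fold change of 0.46 had a 95% interval from -0.07 to 0.99.

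In 3 genes, PMVK, TM7SF2 and SCAP, both SAG libraries lay below both DMSO libraries (22.7% of all tested genes did so). SCAP, the escort of SREBP, had 2277 normalized counts in CTL_DMSO, 1716 in CTL_SAG, 2000 in ZNF521_DMSO and 1763 in ZNF521_SAG, a log2 fold change of -0.29 (standard error 0.148, unadjusted p = 0.0677, adjusted p = 0.461 from edgeR). TM7SF2, a sterol reductase, had 909.7, 798.4, 959.0 and 742.4, a log2 fold change of -0.28 (standard error 0.152, unadjusted p = 0.0894, adjusted p = 0.483). FASN was at -0.41 on the log2 scale (standard error 0.207, unadjusted p = 0.071, adjusted p = 0.463), which came from CTL cells, since the ratio of SAG to DMSO was 0.558 there and 1.02 in ZNF521 cells. PMVK, the phosphomevalonate kinase, was between 371 and 430.1 in all libraries.

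As counted, and across both kinds of cells, the remaining enzymes differed little with SAG. MVK, the mevalonate kinase, had normalized counts between 1375 and 1687, MVD, which decarboxylates mevalonate diphosphate, between 982 and 1191, and FDPS between 1758 and 2042. For MVD the ratio of SAG to DMSO was 1.2 in CTL cells and 0.879 in ZNF521 cells. FDFT1 lay between 3813 and 4391 and DHCR7, the last enzyme of one branch, between 2039 and 2660. NSDHL, HSD17B7 and EBP, all of the late pathway, ran from 650.3 to 755.6, from 200 to 219.9 and from 859.4 to 974.4. LSS, the lanosterol synthase, was the third enzyme that was lower with SAG, at a log2 fold change of -0.13 with a 95% interval from -0.46 to 0.20.

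The SAG differences of these genes followed the GC content of their transcripts. The 5 genes past the nominal threshold were among the 6 of lowest GC, with 34.4% in STARD4, 36.9% in SC5D, 37.4% in MSMO1, 37.9% in IDI1 and 39.0% in HMGCS1, and INSIG2 was the sixth with 36.3%. Across the 29 genes the SAG log2 fold change had a Pearson r of -0.774 with transcript GC (Spearman rho -0.76), and across the 14601 tested genes with a GC value r was -0.587 (rho -0.663). These are correlations across genes that share the same 4 libraries, and genes are not independent replicates. Below 42% GC, 7 of 7 members were higher with SAG, with a median of 0.431, and 88.1% of the 3586 tested genes in that band were higher, with a median of 0.247. At 55% GC or more, 4 of 11 members were higher, against 13.8% of 4570 tested genes, and the medians were -0.13 and -0.201. The members thus lay above the median of tested genes in each band, including that between 42 and 55% (0.093 against 0.021), by bounds chosen after the values were seen.

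With the trend over GC removed from each library, none of the 5 genes was past the nominal threshold, and STARD4 was at 0.26 (unadjusted p = 0.0755, adjusted p = 0.905 from edgeR). Past it were then MVK, at 0.34 (unadjusted p = 0.0197, adjusted p = 0.673 from edgeR), and MVD, at 0.31 (unadjusted p = 0.0399, adjusted p = 0.787), both higher, and ABCA1, at -0.36 (unadjusted p = 0.0207, adjusted p = 0.687), lower, against 2.42% of all tested genes higher and 3.53% lower. Adjusted p was at least 0.673 for all 29 genes (edgeR). SCAP, TM7SF2 and FASN, lower with SAG as counted and with 61.7%, 62.4% and 65.3% GC, were at -0.07, -0.05 and -0.14. PMVK was at 0.05, while NPC1 stayed at -0.25. In this fit 22 of the 29 genes and 17 of the 18 sterol enzymes were higher with SAG (50.3% of all tested genes), and the median was 0.106 over all 29, against 0.001 over all tested genes. How far the tilt in GC accounts for the values as counted was not tested beyond this fit.

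**Figure D3:**
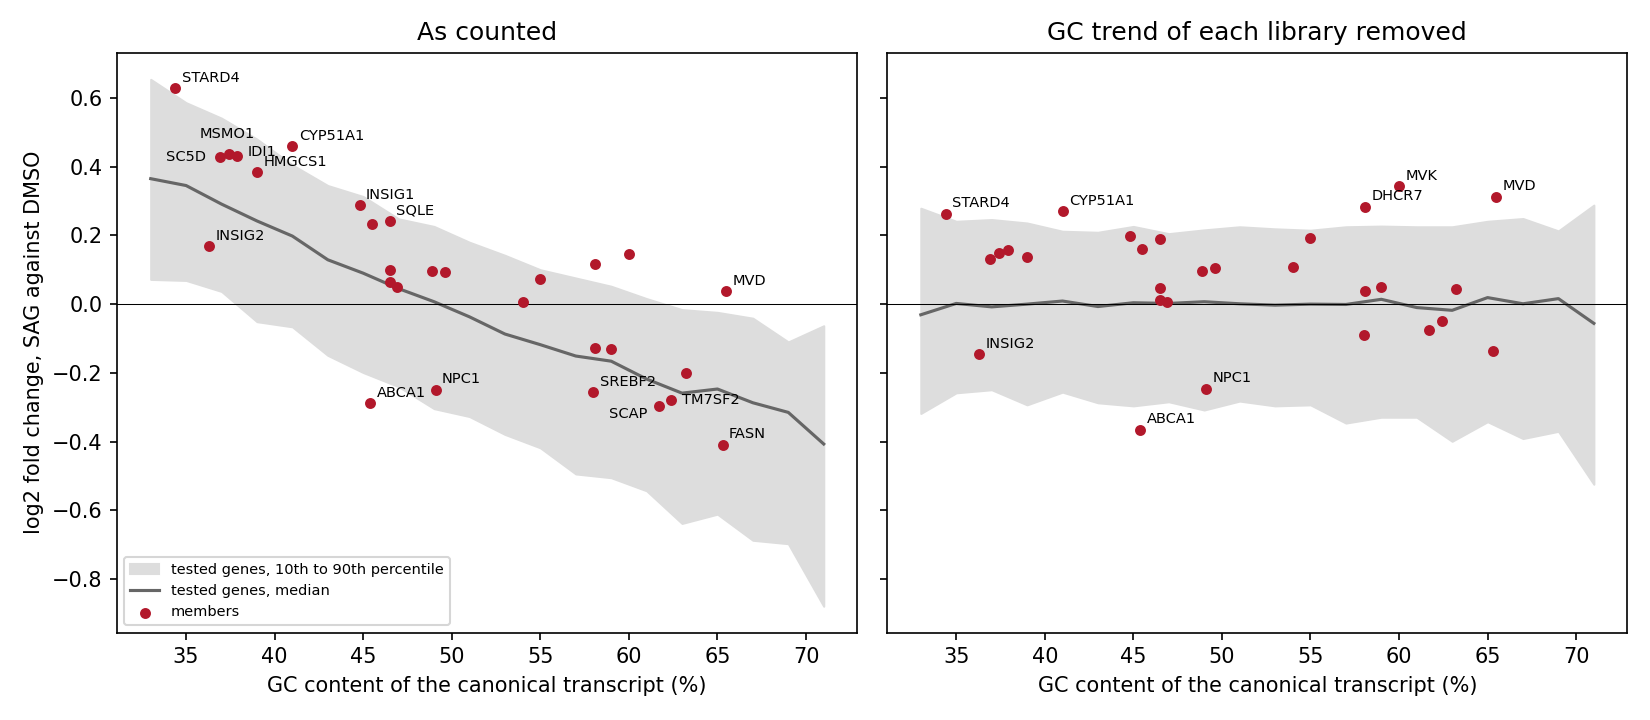
SAG log2 fold change (y axis) against GC content of the canonical transcript (x axis, %) for the 29 genes (points), as counted (left) and with the GC trend of each library removed (right); the line and band are the median and the 10th to 90th percentile of tested genes in bins of GC. As counted, STARD4, MSMO1, SC5D, IDI1 and HMGCS1 lie at the low-GC end, where the median of tested genes is also above 0, and without the trend MVK and MVD lie farthest above 0.

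The second comparison set ZNF521 cells against CTL cells across both treatments. Most of the 29 genes were slightly lower in ZNF521 cells, the fatty acid synthase most, and ABCA1 was higher, again with none past an adjusted p of 0.05. By edgeR with treatment as a block, 0 of 29 genes passed (0.00668% of all tested genes did), and at the nominal threshold 1 was higher and 3 lower (2.36% and 3.11% of all tested genes). Neither DESeq2 nor limma gave any of the 29 past an adjusted p of 0.05. In all, 23 of 29 were lower (50.6% of all tested genes), with a median log2 fold change of -0.116 against -0.003 over all tested genes. The direction held for 14 of the 18 sterol enzymes (median -0.056), for 4 of the 5 genes of sterol sensing (-0.262) and for 3 of 3 genes of fatty acid synthesis (-0.388).

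FASN had 13691 normalized counts in CTL_DMSO, 7641 in CTL_SAG, 6639 in ZNF521_DMSO and 6755 in ZNF521_SAG. CTL_DMSO was at 1.95 times the mean of the other 3 libraries, which differed from each other by at most 1.15-fold. The log2 fold change with ZNF521 was -0.62 (standard error 0.208, unadjusted p = 0.0105, adjusted p = 0.854 from edgeR). Without CTL_DMSO it was -0.18, the ratio of the SAG-treated pair (0.884, exact 95% interval 0.856 to 0.913). The value thus depended on the library that stood apart, and FASN, with 65.3% GC, was among the tested genes of highest GC. With the GC trend removed, it was at -0.51 (unadjusted p = 0.00893, adjusted p = 0.353 from edgeR). In that fit ABCA1 was the 1 gene past the nominal threshold that was higher, and FASN and HMGCS1 the 2 that were lower, against 2.79% and 3.93% of all tested genes.

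The genes that encode SREBP were also highest in CTL_DMSO. SREBF1 had 5280 normalized counts in CTL_DMSO, 4260 in CTL_SAG, 3848 in ZNF521_DMSO and 3623 in ZNF521_SAG, and SREBF2 had 4909, 3278, 3171 and 3325. In SREBF1 both ZNF521 libraries lay below both CTL libraries, while in SREBF2 only CTL_DMSO differed, at 1.51 times the mean of the others, which were within 1.05-fold of each other. The log2 fold change of SREBF1 was -0.36 (standard error 0.155, unadjusted p = 0.0394, adjusted p = 0.907 from edgeR). LSS was at -0.33 (standard error 0.153, unadjusted p = 0.0488, adjusted p = 0.910), with 4968, 4342, 3797 and 3639 normalized counts. The counts of SREBF1 do not separate its 2 protein forms.

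NPC1, the membrane protein that releases cholesterol from lysosomes, was another gene that was high in CTL_DMSO alone, with 969 normalized counts there, 692.4 in CTL_SAG, 663.7 in ZNF521_DMSO and 658.1 in ZNF521_SAG. SCD had 11686, 10260, 7564 and 9407, and ACACA 2341, 2175, 1785 and 2196. SCD was lowest in ZNF521_DMSO, as was ACACA, and neither difference between ZNF521 and CTL cells reached an unadjusted p of 0.05 (95% intervals of the log2 fold change from -0.78 to 0.01 and from -0.54 to 0.14).

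ABCA1, a target of the sterol receptor LXR, had 338.8 normalized counts in CTL_DMSO, 258.2 in CTL_SAG, 420.9 in ZNF521_DMSO and 367.8 in ZNF521_SAG. Both ZNF521 libraries were above both CTL libraries, and within each kind of cells the SAG library was the lower. The log2 fold change with ZNF521 was 0.40 (standard error 0.165, unadjusted p = 0.0319, adjusted p = 0.907 from edgeR), and the ratio was 1.24 with DMSO (exact 95% interval 1.07 to 1.44) and 1.42 with SAG (1.21 to 1.68). FDPS, at 0.13 (standard error 0.143, unadjusted p = 0.373, adjusted p = 0.988 from edgeR), and SC5D, at 0.14 (standard error 0.156, unadjusted p = 0.378, adjusted p = 0.988), were next among the genes that were higher. In 2 genes, ABCA1 and FDPS, both ZNF521 libraries lay above both CTL libraries (13.3% of all tested genes), and in 9 they lay below (13.0%), namely MVK, FDFT1, LSS, NSDHL, DHCR7, SREBF1, NPC1, FASN and SCD.

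Pairs of libraries show where the differences lay, with no replicate check. The comparisons of ZNF521 and of SAG share libraries, so their values are given side by side and are not set against each other. At a threshold of 1.5-fold, ZNF521_DMSO against CTL_DMSO had 0 of 29 genes higher and 3 lower (FASN, SREBF2 and SCD), where 6.89% of all tested genes were higher and 8.76% lower, and ZNF521_SAG against CTL_SAG had 0 in either direction (3.37% and 2.87%). SAG against DMSO had 3 higher (STARD4, CYP51A1 and IDI1) and 1 lower (FASN) in CTL cells, against 8.68% and 10.8% of all tested genes, and 0 in either direction in ZNF521 cells (2.96% and 3.67%). The genes past 1.5-fold were thus all in pairs that include CTL_DMSO, and such pairs also had the larger share of all tested genes.

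**Figure D4:**
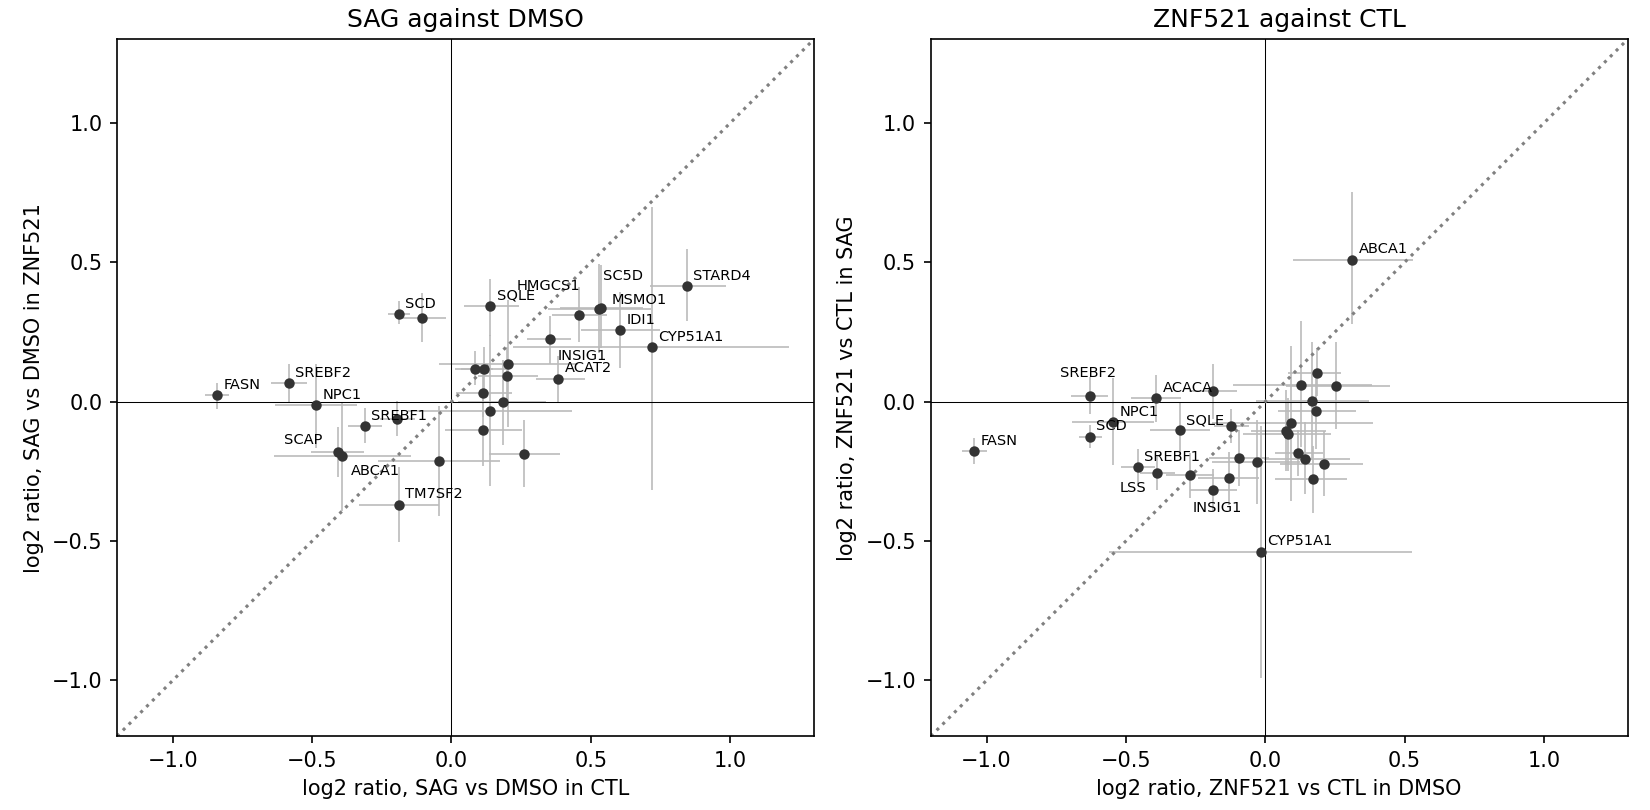
Log2 ratios of normalized counts of the 29 genes for SAG against DMSO in CTL cells (x axis) and ZNF521 cells (y axis, left) and for ZNF521 against CTL cells in DMSO (x axis) and in SAG (y axis, right); bars are exact 95% intervals for counting error only and the dotted line marks equal ratios. STARD4 lies at 0.85 and 0.41 in the left panel, and FASN at -1.04 and -0.18 in the right panel.

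The median log2 ratio of the 29 genes for SAG was 0.115 in CTL cells and 0.083 in ZNF521 cells, where the medians over all tested genes were 0.009 and 0.007. In ZNF521 cells, which do not involve CTL_DMSO, 12 of the 18 sterol enzymes were higher with SAG and all 3 fatty acid genes were (51.3% of all tested genes), while in CTL cells 15 of the 18 enzymes were higher and the 3 fatty acid genes lower (51.0% of all tested genes were higher). For ZNF521 the median was -0.031 with DMSO and -0.116 with SAG, and the sterol enzymes that were lower numbered 8 of 18 and 15 of 18 (52.6% and 49.4% of all tested genes were higher in these pairs). Whether the effect of SAG differs between the kinds of cells cannot be tested with 1 library per condition. An edgeR fit of the 3 libraries other than CTL_DMSO with SAG as its only term differs from the ratio of the ZNF521 pair, which was 0.41 on the log2 scale for STARD4. In that fit STARD4 was at a log2 fold change of 0.52 (adjusted p = 0.044) and SCD at 0.37 (adjusted p = 0.0408), 2 of 29 genes past an adjusted p of 0.05 (0.456% of the 14685 genes tested in it), with HMGCS1 at 0.45 (adjusted p = 0.0907) and SQLE at 0.39 (adjusted p = 0.0785), where ZNF521_DMSO is a lone sample that is assumed to vary like the others. It sets a ZNF521 library against a mixture of CTL and ZNF521 cells, so that SAG and the kind of cells are in part mixed.

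Further genes of sterol and lipid control were counted by list, to be read against the 50.1% of all tested genes that were higher with SAG, the 50.6% that were lower with ZNF521, and the 6.21% and 5.12% that were past the nominal threshold as higher and lower with SAG. Of 10 genes of SREBP processing or regulated by sterols, 7 were higher and 3 lower with SAG, and 10 of 10 were lower with ZNF521, with 0 past the nominal threshold in either comparison and medians of 0.055 and -0.068. Of 9 genes of acetyl-CoA supply, desaturation and elongation, 7 were higher and 2 lower with SAG, and 2 were higher and 7 lower with ZNF521. Past the nominal threshold for SAG were ACSL3, an acyl-CoA synthetase (log2 fold change 0.36, unadjusted p = 0.0248, adjusted p = 0.397 from edgeR), and ME1, the malic enzyme that supplies NADPH (0.33, unadjusted p = 0.0496, adjusted p = 0.441). Of 7 LXR receptors and targets other than ABCA1, 2 were higher with SAG and 4 with ZNF521, none past the nominal threshold in either comparison. Of 9 genes of the isoprenoid branches, such as those for ubiquinone and prenylation, 7 were higher with SAG and 4 with ZNF521, also with none at that threshold.

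Among 11 genes of sterol trafficking, esters and oxysterols, 6 were higher and 5 lower with SAG, and 4 were higher and 7 lower with ZNF521. CH25H, which makes 25-hydroxycholesterol, was higher with SAG (0.41, unadjusted p = 0.0306, adjusted p = 0.404 from edgeR) and GRAMD1A, a sterol transporter at membrane contacts, was lower (-0.34, unadjusted p = 0.0432, adjusted p = 0.423). CH25H had 591.1 normalized counts in CTL_DMSO against 957.4, 861.3 and 944.9 in CTL_SAG, ZNF521_DMSO and ZNF521_SAG, so that CTL_DMSO was again the library apart.

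Most of these nominal values did not hold with the GC trend removed. ACSL3 was then at 0.08 with SAG (unadjusted p = 0.596, adjusted p = 1.0 from edgeR), ME1 at 0.10 (unadjusted p = 0.521, adjusted p = 1.0) and GRAMD1A at -0.09 (unadjusted p = 0.545, adjusted p = 1.0), while CH25H stayed at 0.40 (unadjusted p = 0.0108, adjusted p = 0.524). Other genes passed the nominal threshold in that fit. MBTPS2, the site-2 protease that cleaves SREBP, was lower with SAG (-0.59, unadjusted p = 0.00154, adjusted p = 0.212 from edgeR) and with ZNF521 (-0.43, unadjusted p = 0.0175, adjusted p = 0.482). NUS1, a subunit of the prenyltransferase that makes dolichol, was lower with SAG (-0.43, unadjusted p = 0.0115, adjusted p = 0.536 from edgeR), and ME1 was lower with ZNF521 (-0.33, unadjusted p = 0.027, adjusted p = 0.589). Of the SREBP list 9 of 10 were then lower with ZNF521 (7481 of the 14970 tested genes were), and of the isoprenoid list 4 of 9 were higher with SAG, where 50.3% of all tested genes were. As counted, MBTPS2 had 344.8 normalized counts in CTL_DMSO against 195.1, 201.7 and 215.1 in CTL_SAG, ZNF521_DMSO and ZNF521_SAG. NUS1 had 289.5, 226.7, 228.4 and 232.9 in that order, so CTL_DMSO was the library apart in both. In ZNF521 cells the ratio of SAG to DMSO was 1.07 for MBTPS2 and 1.02 for NUS1. The ratio of ZNF521 to CTL cells with SAG was 1.1 for MBTPS2.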

How the data were processed

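RNA of 4 DAOY conditions, 1 library each, was sequenced as paired reads by the authors. Per the labels, they aligned to hg38 with STAR 2.7.0e. The deposited raw table holds counts per gene as counted by STAR, and the deposited normalized table holds a signal, the same counts divided by the authors by 1 median-of-ratios size factor per library (0.8868 to 1.185, DESeq2). The annotation, strand setting and read filters are not given in the sources used here. Libraries are described as both poly-A-enriched and depleted of ribosomal RNA.

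Groups came from the sample titles. The 14970 of 20363 genes that reached 10 counts in 2 or more libraries were tested by edgeR 4.0.16 in R 4.3.3 (TMM, glmQLFit with the legacy setting, glmQLFTest) with ZNF521 and SAG as additive terms, 1 residual and 11.7 prior degrees of freedom, and Benjamini-Hochberg adjustment over all 14970 genes. The normalized table lacks 503 genes, all with a total count of 1. Ratios of 2 libraries used normalized counts, with exact 95% Clopper-Pearson intervals that cover counting error only. Transcript GC and length came from the canonical GENCODE v44 transcript (97.2% of genes), and the GC trend was removed as a lowess offset (span 0.3) per library. Promoters were from RefSeq, and where a gene has several start sites the one nearest the canonical transcript was used. Alternatives were RLE factors, library size alone, no filter, genes with a mean count of 50 or more, the tools DESeq2 1.42.0 and limma 3.58.1 (the latter on log2 of the deposited normalized counts set to at least 1), no block, the GC trend removed, each library left out, and, chosen after seeing the data, edgeR without its legacy setting.

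The 29 genes, the further lists and the tests were chosen with earlier results of these data known. Every one of the 29 genes is given by its values, with fold changes, standard errors and p for those at an unadjusted p up to 0.05 and the 3 of smallest p in each direction, and up to 4 genes of each further list are named. Genes in other figures and sentences were chosen after their values were seen. Nothing tells whether the 4 libraries came from separate cultures beyond their conditions.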

Additional observations from a re-analysis of the deposited data

Results flagged for a closer look

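For 5 genes the ratio of a pair of libraries pointed one way in one setting and the opposite way in the other, with both exact 95% intervals away from equality. With 1 library per condition these differences were not tested. With ZNF521, STARD4 was at a log2 ratio of 0.21 with DMSO and -0.22 with SAG, and ACAT2 at 0.12 and -0.18. MVD was at 0.17 with DMSO and -0.28 with SAG for ZNF521, and at 0.26 in CTL cells and -0.19 in ZNF521 cells for SAG. With SAG, SCD was at -0.19 in CTL cells and 0.32 in ZNF521 cells, and ACACA at -0.11 and 0.3. Each of these contrasts includes CTL_DMSO, the library that stood apart, in 1 of its pairs.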

How the results depend on the processing

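The median log2 fold change of the 29 genes kept its sign under all alternatives run, from 0.071 to 0.115 for SAG and from -0.168 to -0.031 for ZNF521. The labels carry no replicate numbers, and the fit reported pairs the libraries through the other factor as a block. Below, nominal means an unadjusted p up to 0.05. No block gave 444 nominal genes for ZNF521 (820 with it) and 0 at an adjusted p under 0.05 for SAG (6 with it). No filter on low counts gave 100 genes at an adjusted p under 0.05 for ZNF521 (1 in the fit reported) and 223 for SAG, with 1259 nominal genes for ZNF521, and 1 of the 29 genes, STARD4, passed for SAG (log2 fold change 0.626, adjusted p = 0.0276 from edgeR; over all alternatives 0.000304 to 1). With the GC trend removed, 76 genes passed for ZNF521 and 36 for SAG, 892 genes were nominal for SAG (1697 as counted), and of the 29 genes 3 were in place of 5. That setting also gave SC5D a log2 fold change of -0.023 with ZNF521 in place of 0.143, a median ratio of ZNF521_DMSO to CTL_DMSO of -0.145, and, for SAG in CTL cells, 1 of the 29 genes at least 1.5-fold higher and 0 lower. TMM factors and library size alone each gave 2 that were lower in that pair. DESeq2 gave 167 nominal genes for ZNF521 and 424 for SAG, of the 29 genes 1 each. Limma gave 0 genes at an adjusted p under 0.05 for either factor, 1127 nominal genes for SAG, and of the 29 genes 0 for ZNF521 and 1 for SAG. Leaving out 1 library at a time gave 0 to 2340 genes for ZNF521 and 0 to 4513 for SAG at an adjusted p under 0.05, and 120 to 4141 and 305 to 6061 nominal genes. Of the 29 genes, 0 to 6 and 0 to 13 passed the adjusted threshold and 0 to 9 and 1 to 14 the unadjusted one, with the highest counts without CTL_SAG for ZNF521 and without ZNF521_DMSO for SAG, where CTL_DMSO stood alone. These counts come from fits with the compared factor alone, in which the lone sample is assumed to vary like the pair. The median, taken from the pair of libraries left, ranged from -0.116 to -0.031 for ZNF521. Except where a setting uses fewer samples, the cause was not tested. STARD4 was nominal for SAG in 13 of 14 settings, all but the GC trend removed (unadjusted p = 0.0755 from edgeR), and FASN for ZNF521 in 11 of 14. A further 127 values for groups of genes and 164 for single genes kept their direction and their side of an adjusted p of 0.05 (crossings of the nominal threshold are not part of this count) or, for counts, stayed within 1.5-fold. In the fit reported, adjusted p of the 29 genes was at least 0.391 for SAG and 0.854 for ZNF521 (edgeR). A gene could thus keep its side while its size changed, as STARD4 did with SAG (0.629 as counted, 0.263 with the GC trend removed). CYP51A1 had the fewest counts of the 29 genes, at 58 to 88, and up to 68.2% of its exon bases are shared with another gene on the same strand.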
